A study of Mus musculus with 30 samples.

Results

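CD4+ T cells of primed mice that had received abatacept were compared with CD4+ T cells of unimmunised mice, on 6 arrays of the 30 in the series, 3 in each group. All mice were DO11.10 RAG2-/- on the BALB/c background and 8 to 10 weeks old, so that the controls too lack RAG2 and carry the transgenic T cell receptor, which recognises an ovalbumin (OVA) peptide. The abatacept group had been immunised under the skin with 100 µg OVA per mouse in complete Freund's adjuvant (CFA) and given 10 mg/kg abatacept, and its cells came from the axillary lymph nodes 10 days after immunisation. The unimmunised group had received neither, and its cells came from lymph nodes pooled with spleen, so treatment and tissue cannot be told apart in this comparison. For that reason 3 arrays of primed mice given 10 mg/kg control IgG and 3 of primed mice with no antibody, both from axillary nodes on the same day, are set beside it. The comparison asks what priming leaves in the cells when costimulation is blocked.

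A naive T cell is fully activated only when its antigen receptor and the costimulatory receptor CD28 are engaged together, CD28 by CD80 and CD86 on the antigen-presenting cell. CTLA-4 binds the same ligands more tightly, is put on the surface after activation and restrains the response. Abatacept is a soluble protein built from the ligand-binding region of CTLA-4 and the constant region of an antibody, which covers CD80 and CD86 and so withholds the CD28 signal. It is given as protein, and the arrays read transcripts of the mouse's own genes.

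The members of the comparison were all genes with 1 symbol, each read by its brightest probe set over the 30 arrays, which gave 17097 genes. Values are log2 levels, and a difference is the abatacept mean minus the unimmunised mean. Of these genes 10322 passed the filter, a value over the array's median on 3 or more of 15 CD4 arrays, and were tested with limma, and "rose" and "fell" are used for adjusted p under 0.05. The array medians were between 4.4555 and 4.544, and a group mean under them is not shown to be above background, so that a fold against it is not exact. Arrays of the same group correlated at 0.9869 to 0.9954 across genes, and abatacept with unimmunised arrays at 0.9289 to 0.941.

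The T cell identity of both groups was plain, but the unimmunised arrays also carried transcripts of other blood cells. All 10 tested T cell genes rose, among them Cd3g, a chain of the receptor complex, which read 11.19, 11.19 and 11.17 on the abatacept arrays and 9.99, 10.05 and 9.99 on the unimmunised arrays (difference 1.17, SE 0.06, adjusted p = 4.6e-09). The mean of the T cell list was 10.01 to 10.1 on abatacept, 9.96 to 10.03 on control IgG and 8.69 to 8.81 on unimmunised arrays. Thus the lymph node groups lay together and the unimmunised arrays lower. The mean rise of the 10 genes was 1.31, which equals the shift applied when each array is centred on them, and their median rise was 1.1. Cd5 and Cd6, which rose furthest, lift that mean: over the other 8 genes it was 0.94. In bulk samples, fewer cells of a type and less RNA per cell cannot be told apart.

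Genes of red cell precursors, granulocytes and macrophages made up the largest falls. All 13 erythroid genes tested fell, with a list mean of 4.35 to 4.56 on abatacept, 4.22 to 4.27 on IgG and 8.5 to 8.86 on unimmunised arrays. The 16 neutrophil genes likewise all fell (3.69 to 3.84 on abatacept against 8.8 to 9.18 on unimmunised arrays), as did the 13 monocyte and macrophage genes (3.79 to 4.03 against 7.6 to 7.88) and the 7 genes of splenic red pulp macrophages (3.29 to 3.54 against 8.57 to 8.8). The 6 largest falls of all genes tested were of this kind: Ngp, S100a8, Mpo and Camp, which encode proteins of granulocytes, Slc40a1, the iron exporter ferroportin, and Slc4a1, the anion exchanger of red cells. Their differences ran from -7.73 for Ngp to -7.25 for Camp. Of the other lists, 9 of 10 dendritic cell genes, 7 of 8 mast cell and basophil genes, all 6 NK cell genes and all 4 eosinophil genes fell, with medians of -2.00, -2.92, -2.29 and -2.98. The abatacept mean was above the array medians for 0 of 7 red pulp macrophage, 2 of 16 neutrophil and 7 of 13 erythroid genes on the array. The counts were 0 of 8 for mast cells and basophils, 0 of 4 for eosinophils and 4 of 14 for macrophages. They were 5 of 7 for NK cells and 7 of 12 for dendritic cells. A gene low with abatacept could pass the filter through the unimmunised arrays alone, and its fall was then fixed beforehand. The labels give a purity of over 90% for the sort of every CD4 group. The B cell list had 2 genes tested, which both fell, and the platelet list had 1 fall among 2. A CD8 gene, Cd8b1, rose by 0.70 and an endothelial gene, Pecam1, by 0.86, while the salivary gland list had no gene above the filter.

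**Figure D1:**
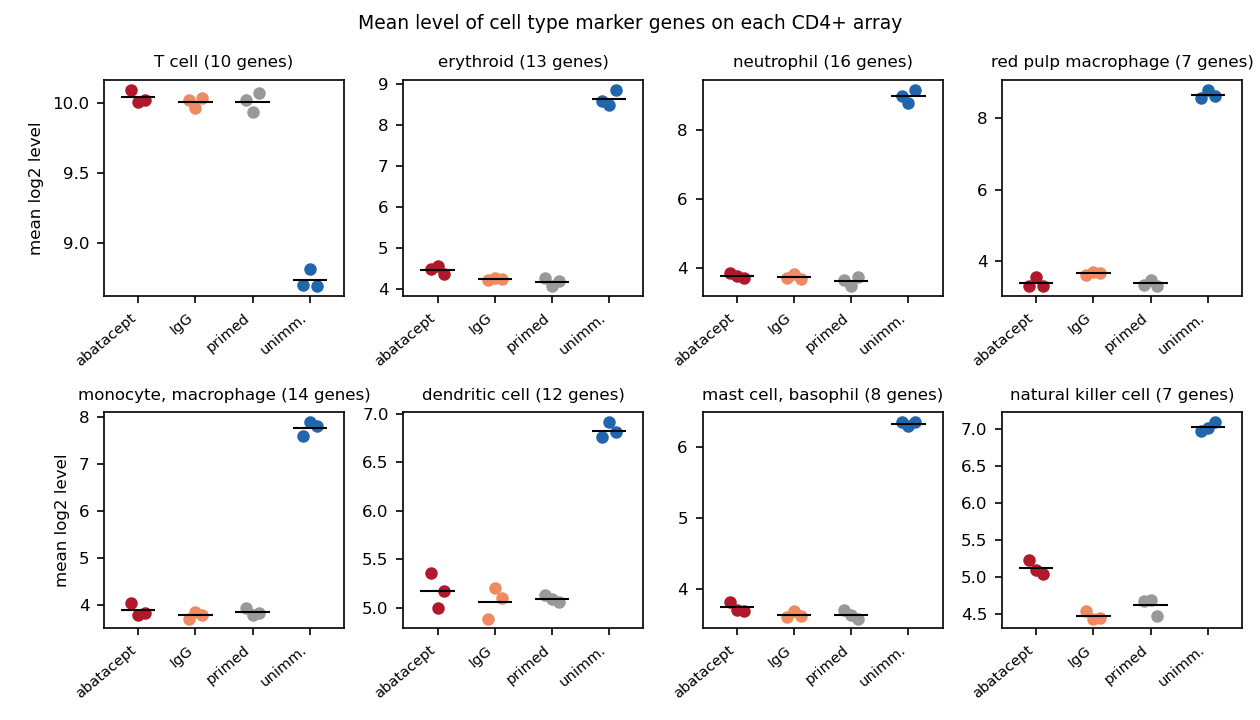
Mean log2 level of the T cell list and of lists of other cell types on each CD4 array, by group (abatacept, control IgG, primed, unimmunised), with 1 point per array and a bar for the group mean. The T cell genes are lowest on the unimmunised arrays (8.69 to 8.81) and the genes of red cell precursors, neutrophils and macrophages are highest there.

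Over all genes tested, 5978 differed (57.9%), of which 2415 rose (23.4%) and 3563 fell (34.5%). With the filter set on the 12 lymph node arrays in place of all 15, the rises numbered 2415 and the falls 3131, so part of the falls passed the filter through the unimmunised arrays, where those genes were high. The median difference was -0.05. At least 2-fold changes were fewer, with 330 rises (3.2%) and 1375 falls (13.3%). For 6625 genes the 3 abatacept values lay wholly outside the 3 unimmunised ones (64.2%), so a gene whose groups are apart is common here. When each array was centred on its T cell genes, 64 genes (0.62%) stood above the unimmunised level and 9943 (96.3%) below it. Centred on the 8 genes without Cd5 and Cd6, a setting chosen after seeing the data, 170 (1.65%) were above and 9377 (90.8%) below. Differences smaller than the mean rise used turn negative on such a scale. Below, a gene is said to be called beyond the T cell genes where its excess over their mean rise passed the test, and the result is given for 10 and for 8 genes. Against control IgG, in the same tissue, 1722 genes differed (16.7%), 344 higher (3.33%) and 1378 lower (13.4%) with abatacept.

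**Figure D2:**
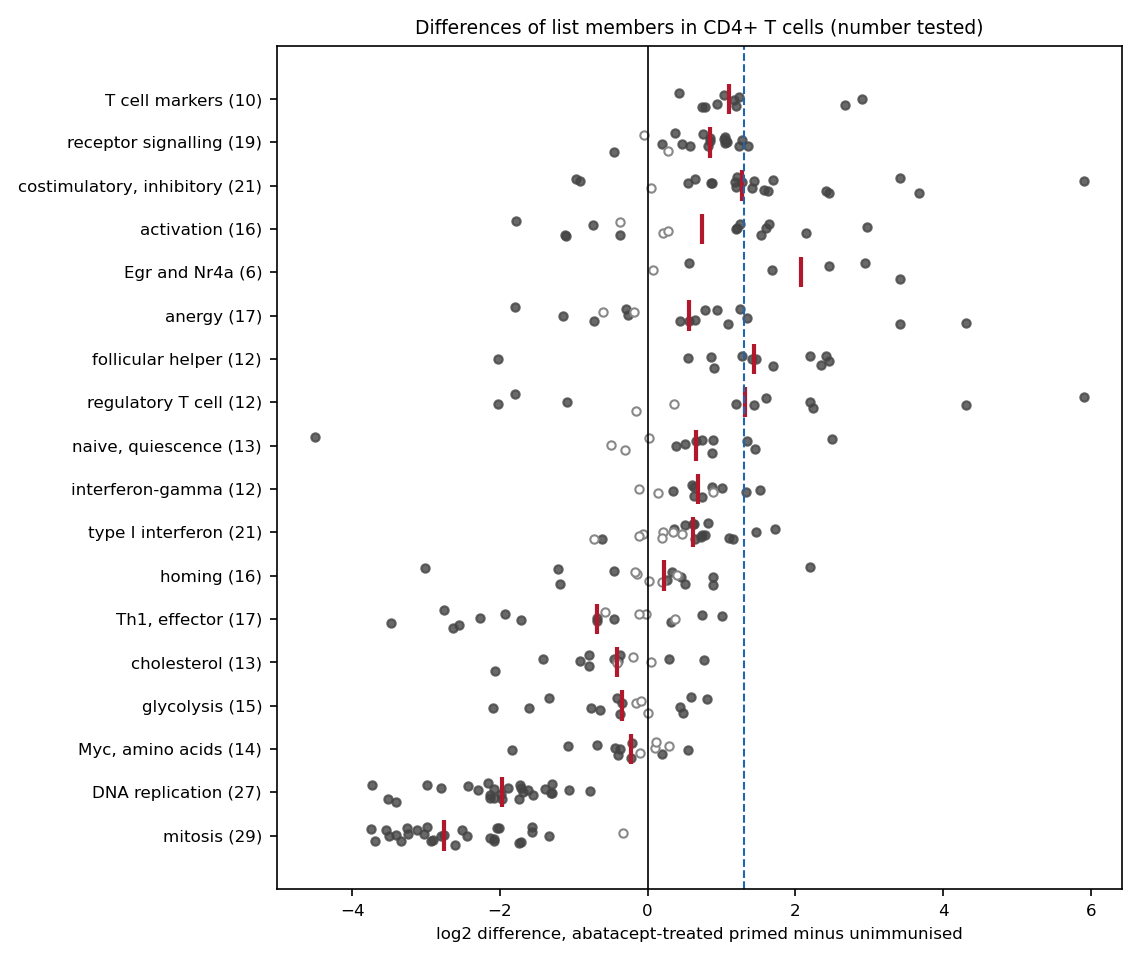
Differences between abatacept and unimmunised arrays (log2) for the members of each gene list, filled where adjusted p was under 0.05 and open otherwise, with a red bar at the list median and a dashed line at the mean rise of the T cell genes (1.31). Costimulatory, follicular helper and Egr and Nr4a genes lie mostly to the right, and the replication and mitosis genes lie to the left.

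Transcripts of the antigen receptor's signalling chain mostly rose. Of 19 tested, 16 rose, 1 fell and 2 were not called, with a median of 0.84. Examples were Prkcq, the kinase PKC-theta, which rose by 1.04, and Rasgrp1, the activator of Ras in T cells, by 1.36. None was called beyond the 10 T cell genes (Rasgrp1, 0.05, adjusted p = 0.55), and Rasgrp1 and Sh2d2a were called beyond the 8. The single fall was Ptpn6, the phosphatase SHP-1, at -0.45. The receptor's negative regulators Cd5 and Cd6, which belong to the T cell list, rose furthest in it, by 2.90 and 2.67.

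Costimulatory and coinhibitory receptors and their ligands stood mostly above the unimmunised level with abatacept: 18 of 21 tested rose and 2 fell, with a median of 1.28. Ctla4 showed the largest rise of all genes tested. It read 9.84, 9.29 and 9.20 on abatacept, 9.01, 8.90 and 9.16 on IgG, and 3.49, 3.58 and 3.57 on unimmunised arrays. All abatacept and IgG arrays were thus high and all unimmunised arrays below the array medians (difference 5.90, SE 0.19, 59.6-fold, adjusted p = 6.8e-11). The difference between abatacept and IgG was 0.42 and did not pass (adjusted p = 0.16). Cd28 read 10.38, 10.26 and 10.31 on abatacept against 8.69, 8.75 and 8.60 on unimmunised arrays, and rose by 1.63 (SE 0.09, adjusted p = 7e-09). Its rise exceeded that of the 10 T cell genes by 0.33 (adjusted p = 0.0019) and that of the 8 by 0.69.

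Tnfrsf9, the costimulatory receptor 4-1BB, read 8.86, 8.24 and 8.00 on abatacept, 7.26, 7.53 and 7.69 on IgG, and 5.06, 5.03 and 4.73 on unimmunised arrays. The 3 groups did not overlap: the rise over unimmunised was 3.42 (SE 0.26, adjusted p = 1.3e-07) and the level was 0.87 above IgG (adjusted p = 0.036). Cd200, a surface protein that restrains myeloid cells, rose by 2.45, with no call against IgG (0.29, adjusted p = 0.61). Outside the list, Tnfsf4, the ligand of OX40, was picked after its values were seen; it rose by 2.80 and stood 1.89 above IgG (adjusted p = 0.003).

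Other members rose but stayed below the IgG level. Icos, the inducible relative of CD28, read 9.80, 9.28 and 9.29 on abatacept, 11.12, 11.45 and 11.45 on IgG, and 7.04, 7.11 and 7.0 on unimmunised arrays. The abatacept arrays lay between the other groups without overlap, 2.41 above unimmunised (SE 0.13, adjusted p = 6.8e-09) and 1.89 below IgG (adjusted p = 7.7e-07). Tnfsf11, the cytokine RANKL, read 7.51, 6.76 and 6.78 on abatacept, 8.09, 8.58 and 8.37 on IgG, and 3.33, 3.46 and 3.26 on unimmunised arrays, a rise of 3.67 that left it 1.33 below IgG (adjusted p = 0.0014). Tnfrsf4, the receptor OX40, rose by 1.44 and was 1.24 below IgG. The rise of Tnfrsf4 was 0.13 above that of the 10 T cell genes (adjusted p = 0.43) and 0.5 above that of the 8 (adjusted p = 0.011). Cd96, a receptor of the nectin family of ligands, rose by 1.57 and was 0.34 below IgG (adjusted p = 0.006). In all, 8 of the 21 list members were called beyond the 10 T cell genes (Ctla4, Tnfsf11, Tnfrsf9, Cd200, Icos, Slamf6, Cd28 and Cd96), and 13 beyond the 8. Havcr2 and Tnfsf14, which encode the inhibitory receptor TIM-3 and the cytokine LIGHT, fell by 0.92 and 0.97. They were also below IgG, by 1.35 (adjusted p = 0.0029) and 1.96 (adjusted p = 6.1e-08). Havcr2 is also expressed by myeloid cells, with a mean of 8.06 in unimmunised CD11c+ cells, and the part of the macrophage list in its fall was not tested.

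Activation genes divided in the same way. Of 16 tested, 8 rose, 5 fell and 3 were not called, with a median of 0.73. Irf4, a transcription factor induced in proportion to receptor signal, read 8.86, 8.51 and 8.54 on abatacept, 8.47, 8.54 and 8.48 on IgG, and 5.66, 5.79 and 5.54 on unimmunised arrays. The rise was 2.97 (SE 0.11, 7.86-fold, adjusted p = 2e-10) and the difference from IgG 0.14 (adjusted p = 0.43). Cd69, an early activation marker that holds cells in the node, read 9.22, 9.0 and 9.45 on abatacept, 8.52, 8.46 and 8.53 on IgG, and 7.12, 7.20 and 6.92 on unimmunised arrays. Its abatacept arrays were the highest, 2.15 over unimmunised and 0.72 over IgG (adjusted p = 0.0021).

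Il2ra, the high-affinity chain of the interleukin-2 receptor, went the other way relative to IgG. It read 6.75, 6.83 and 6.66 on abatacept, 8.98, 9.09 and 8.78 on IgG, and 5.29, 5.23 and 4.92 on unimmunised arrays. The groups did not overlap, and the level was 1.60 over unimmunised (SE 0.17, adjusted p = 3.7e-06) and 2.20 under IgG (adjusted p = 2.3e-06). Its rise was 0.29 larger than that of the 10 T cell genes, which did not pass (adjusted p = 0.093), and 0.66 larger than that of the 8, which did (adjusted p = 0.002). Batf, a partner of IRF4 on DNA, rose by 1.20 and was 1.13 below IgG, with no call beyond the 10 T cell genes (-0.11, adjusted p = 0.43) or the 8 (0.26, adjusted p = 0.11). Il2 itself was at 4.01, 3.88 and 4.40 on abatacept and at 4.03, 3.78 and 3.84 on unimmunised arrays, all under the array medians, and 1.49 below IgG. Tfrc, the transferrin receptor, which red cell precursors also express strongly, fell by 1.78, and Cd44, an adhesion receptor kept high on antigen-experienced cells, by 0.74. The erythroid list fell along with them, and its part in these falls was not tested.

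**Figure D3:**
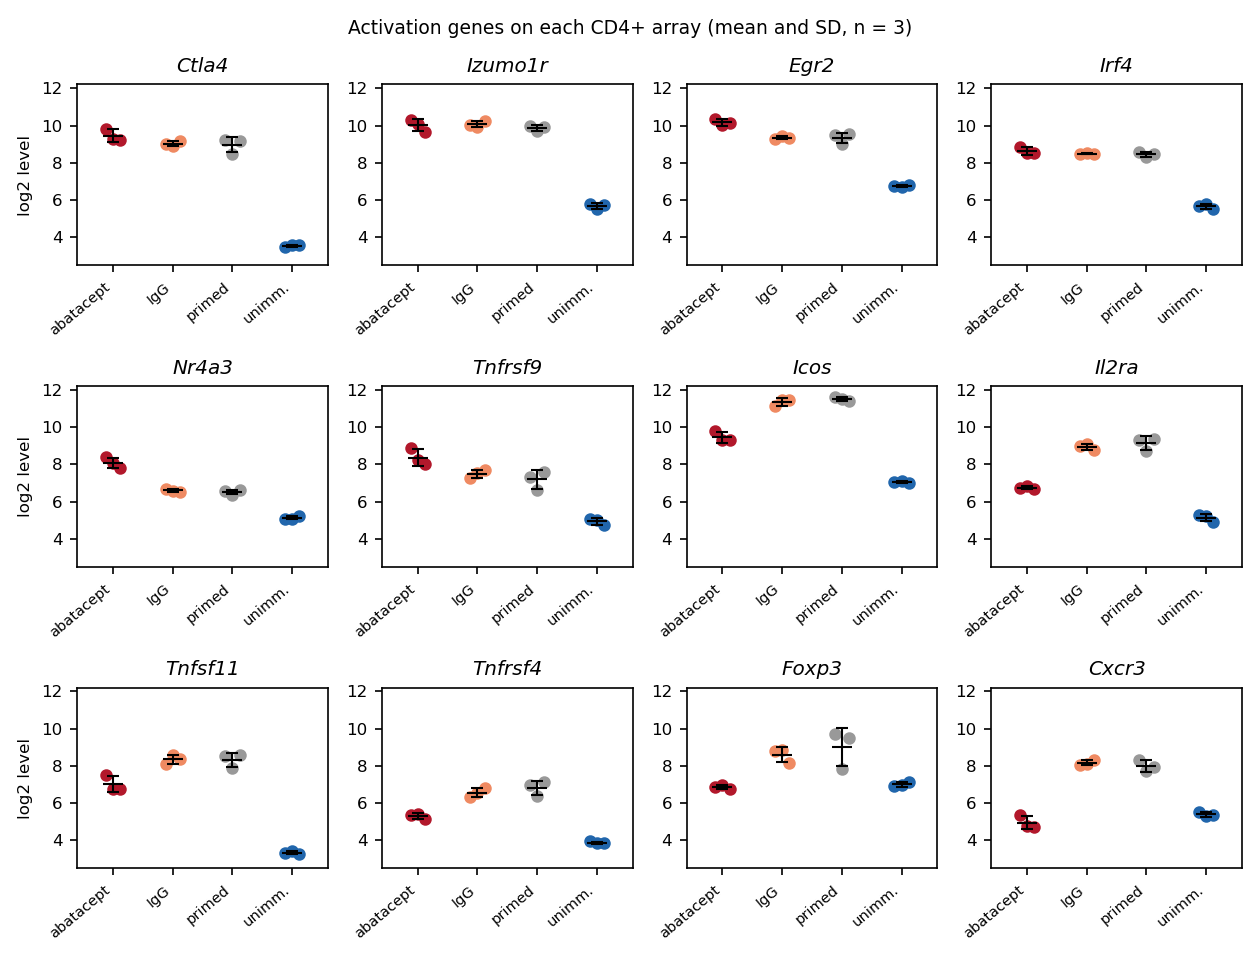
Log2 levels on each CD4 array of single activation and costimulation genes, by group (abatacept, control IgG, primed, unimmunised), with 1 point per array and a bar for the group mean. Ctla4, Egr2 and Nr4a3 are at or above the IgG level with abatacept, Icos and Il2ra lie between IgG and unimmunised, and Foxp3 and Cxcr3 lie near the unimmunised level.

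The transcription factors of the Egr and Nr4a families, which are induced by receptor signalling and act in feedback restraint, rose in 5 of 6 genes tested with 1 not called, at a median of 2.07. Against IgG 4 were higher and 0 lower, with a median of 0.85. Beyond the 10 T cell genes 3 were called (Egr1, Egr2 and Nr4a3), and Nr4a1 as well beyond the 8. Egr2 read 10.37, 10.04 and 10.11 on abatacept, 9.29, 9.45 and 9.32 on IgG, and 6.76, 6.72 and 6.80 on unimmunised arrays (difference 3.42, SE 0.13, 10.7-fold, adjusted p = 2.1e-10). Every abatacept array was above every IgG array, by 0.82 in the mean (adjusted p = 0.00083). Nr4a3 read 8.37, 8.05 and 7.79 on abatacept, 6.70, 6.58 and 6.54 on IgG, and 5.08, 5.09 and 5.23 on unimmunised arrays, a rise of 2.94 with a level 1.46 above IgG (adjusted p = 4.5e-05). Egr1 rose by 2.46 and was 0.87 above IgG.

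For Nr4a1, the orphan receptor Nur77, the IgG arrays lay close to the unimmunised level. It read 7.21, 6.55 and 6.52 on abatacept, 5.32, 5.38 and 5.19 on IgG, and 5.16, 4.95 and 5.12 on unimmunised arrays. Of these 3 groups the abatacept arrays stood apart, higher by 1.68 (SE 0.23, adjusted p = 3.2e-05), and the IgG difference from unimmunised of 0.22 was not called (adjusted p = 0.45), in a contrast that called 49.1% of genes. Egr3 likewise had no call between IgG and unimmunised (0.34, adjusted p = 0.053), and rose by 0.56 with abatacept. Nab2, a corepressor of EGR proteins picked after its values were seen, rose by 1.67 and was 0.58 above IgG. Abatacept replicate 1 gave the highest reading for Egr2, Egr1, Nr4a3, Nr4a1, Ctla4 and Tnfrsf9.

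Of 11 other immediate early genes tested, 5 rose, 2 fell and 4 were not called, with a median of 0.41, while 4 were higher and 0 lower against IgG. None was called beyond the 10 T cell genes or the 8. Jun, a subunit of AP-1, read 10.01, 9.85 and 9.58 on abatacept, 8.61, 8.02 and 8.16 on IgG, 9.18, 9.16 and 9.23 on primed arrays with no antibody, and 9.04, 9.08 and 9.02 on unimmunised arrays. The abatacept arrays were the highest (rise 0.77, adjusted p = 0.00035), and the IgG arrays lay below the primed ones. Fos, the partner of JUN, read 8.61, 8.00 and 7.59 on abatacept, 5.90, 5.67 and 5.84 on IgG, and 7.49, 7.53 and 7.97 on unimmunised arrays. Abatacept and unimmunised arrays overlapped (0.41, adjusted p = 0.12), and without abatacept replicate 3 the difference was 0.64 (adjusted p = 0.017). Dusp1, a phosphatase that shuts off MAP kinases, rose by 0.95 and was 1.58 above IgG. The falls were Klf4 and Ier3, at -3.00 and -1.99, which myeloid cells also express.

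Genes reported in anergic or exhausted T cells showed a mixed picture, with 10 rises, 5 falls and 2 genes not called of 17 tested, and a median of 0.56. Izumo1r, the folate receptor 4 that marks anergic and regulatory CD4 cells, read 10.29, 10.09 and 9.67 on abatacept, 10.02, 9.93 and 10.24 on IgG, and 5.82, 5.53 and 5.76 on unimmunised arrays. Abatacept and IgG arrays overlapped (-0.05, adjusted p = 0.86), and all lay far above the unimmunised arrays, 19.9-fold for abatacept (4.31, SE 0.14, adjusted p = 6.8e-11). Cblb, a ubiquitin ligase that limits signalling without CD28, rose by 0.94, and Dgkz and Dgka, the kinases that remove diacylglycerol, by 1.09 and 0.77. They rose less than the 10 T cell genes, at -0.37, -0.22 and -0.54 (adjusted p = 0.00087, 0.035 and 5.4e-05). Relative to the 8 they were not called (0.0, 0.15 and -0.17, adjusted p = 0.97, 0.15 and 0.054). Dtx1, another ubiquitin ligase, rose by 1.35 but was 1.02 below IgG. Rnf128, the ligase GRAIL, fell by 0.73 and Nrp1, neuropilin 1, by 1.79. Nt5e, the ectoenzyme CD73, read 3.98, 3.99 and 3.86 with abatacept and 4.35, 4.05 and 3.99 in unimmunised cells, under the array medians in both. Of these 17, Izumo1r and Egr2 were called beyond the 10 T cell genes, and Dtx1 and Nfatc1 as well beyond the 8.

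Follicular helper genes rose in 11 of 12 tested, with 1 fall and a median of 1.44; 4 further list members were below the filter. Cxcr5, the receptor that guides T cells to follicles, read 6.12, 5.30 and 4.51 on abatacept and 2.82, 3.06 and 3.45 on unimmunised arrays. The groups were apart but the abatacept arrays were widely spread, and the rise was 2.20 (SE 0.43, adjusted p = 0.0007). Bcl6, the lineage's master repressor, rose by 0.90, Sh2d1a, the adaptor SAP, by 1.47, Slamf6, a SAP-binding receptor, by 1.7 and Pou2af1, a coactivator of octamer factors, by 2.35. Beyond the 10 T cell genes 4 members were called (Cd200, Icos, Pou2af1 and Slamf6), and beyond the 8 genes 8 were. Bcl6 rose less than the 10 (-0.41, adjusted p = 0.0081) and about as much as the 8 (-0.04, adjusted p = 0.77). Cxcr5 and Sh2d1a were not called beyond the 10 (0.89, adjusted p = 0.052, and 0.16, adjusted p = 0.093) but were beyond the 8. Against IgG, 1 member was higher (Pou2af1, by 0.92) and 5 were lower. The fall was Maf, at -2.02, with abatacept arrays at 2.46, 2.44 and 2.64. Maf averaged 7.28 in unimmunised CD11c+ cells.

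Regulatory T cell genes split. Of 12 tested, 7 rose, 3 fell and 2 were not called, with a median of 1.32 over unimmunised and of -1.16 against IgG. Beyond the 10 T cell genes 4 were called, and beyond the 8 genes 6 were. Foxp3, the lineage factor, read 6.86, 6.95 and 6.76 on abatacept, 8.79, 8.87 and 8.13 on IgG, and 6.91, 6.98 and 7.16 on unimmunised arrays. The abatacept and unimmunised arrays overlapped (-0.16, 95% interval -0.95 to 0.63, adjusted p = 0.72), and the level was 1.74 below IgG (adjusted p = 0.0059). Relative to the 10 T cell genes Foxp3 was lower, at -1.47 (adjusted p = 0.001), and relative to the 8 at -1.1 (adjusted p = 0.011). Ikzf2 and Ikzf4, the factors Helios and Eos, rose by 2.20 and 2.24, with no call against IgG (-0.44, adjusted p = 0.32, and 0.23, adjusted p = 0.35). Ebi3, a subunit of interleukin-35, fell by 2.03 and Capg, an actin-capping protein, by 1.09. Ebi3 and Nrp1 are also expressed by myeloid cells, with means of 8.26 and 8.53 in unimmunised CD11c+ cells. The monocyte and macrophage list, with a median of -4.36, fell beside Ebi3, Nrp1 and Maf, and its part in those falls was not tested. Ebi3 and Maf were also below IgG, by 2.61 (adjusted p = 3.2e-07) and 1.67 (adjusted p = 0.0023). Nrp1 was not called against IgG (-1.07, adjusted p = 0.073). The macrophage list mean was 3.79 to 4.03 on abatacept and 3.7 to 3.84 on IgG arrays. Itgae, the integrin chain CD103, was not called (0.36, adjusted p = 0.38) and lay 1.49 below IgG.

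Homing genes were mixed. Of 16 tested, 7 rose, 4 fell and 5 were not called, with a median of 0.23, and against IgG 1 was higher and 7 were lower. Cxcr3, the receptor for interferon-induced chemokines, read 5.36, 4.8 and 4.71 on abatacept, 8.06, 8.11 and 8.34 on IgG, and 5.54, 5.30 and 5.37 on unimmunised arrays. The IgG arrays were far above both other groups, which overlapped, and the abatacept level was 3.21 below IgG (adjusted p = 1.2e-07). Its difference from unimmunised was -0.45 (adjusted p = 0.042), and the call was lost when any single array other than abatacept replicate 1 was left out (-0.50 to -0.32, adjusted p of 0.052 to 0.17). Ccr2, a receptor that monocytes express strongly, fell by 3.01 and was 1.91 below IgG, and Itgb1, the integrin beta 1 chain, fell by 1.21 and was 1.45 below IgG. Rises included Itgal, a chain of the integrin LFA-1, by 0.88 and Gpr183, an oxysterol receptor, by 0.89. S1pr1, the receptor that lets cells leave the node, rose by 0.65. Beyond the 10 T cell genes 0 of the 16 were called, and beyond the 8 only Cxcr5. Relative to the 10, Itgal, Gpr183 and S1pr1 were lower, at -0.43, -0.42 and -0.66 (adjusted p = 4.6e-05, 0.042 and 9.6e-05). Relative to the 8, S1pr1 was lower, at -0.29 (adjusted p = 0.024). Itgal and Gpr183 were not called there (-0.06 and -0.05, adjusted p = 0.52 and 0.79).

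Genes of naive and quiescent T cells mostly rose. Of 13 tested, 9 rose, 1 fell and 3 were not called, with a median of 0.65, and against IgG 4 were higher and 0 lower. Bach2, a repressor of effector programmes, read 10.14, 10.07 and 9.98 on abatacept, 9.45, 9.39 and 9.46 on IgG, and 8.59, 8.65 and 8.60 on unimmunised arrays. Its abatacept arrays were the highest, 1.45 over unimmunised (SE 0.08, adjusted p = 7.6e-09) and 0.63 over IgG. Lef1, a factor of naive T cells, rose by 1.34 and Satb1, a chromatin organiser, by 0.89. Nsg2, at 2.49, was called beyond the 10 T cell genes, and Bach2 and Lef1 too beyond the 8. Klf2, which drives S1pr1, was at 8.88, 8.93 and 8.78 on abatacept and 8.85, 8.89 and 8.81 on unimmunised arrays (0.02, adjusted p = 0.90) and was 0.46 above IgG (adjusted p = 0.005). Relative to the 10 T cell genes Klf2 was lower, at -1.29 (adjusted p = 3.6e-08), and relative to the 8 at -0.92 (adjusted p = 9.3e-07). The fall among the 13 was Ly6c1, at -4.50, a surface marker that monocytes share.

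Cell cycle genes fell almost without exception, and most were also lower than with IgG. All 27 DNA replication genes tested fell, with a median of -1.97, and 28 of 29 mitosis genes fell, with a median of -2.75. Against IgG, 22 and 27 of them were lower, with medians of -0.76 and -1.97, and 0 were higher in either list, beside a median of -0.07 over all genes. The mean of the mitosis list was 5.12 to 5.48 on abatacept, 7.02 to 7.47 on IgG and 7.71 to 8.04 on unimmunised arrays. The exception, Hmmr, was at -0.34 (adjusted p = 0.075). Its value was -0.43 without abatacept replicate 3 (adjusted p = 0.049) and -0.50 without unimmunised replicate 1 (adjusted p = 0.011), and -1.51 as the mean of its probe sets (adjusted p = 1.7e-07), so its probe sets disagree.

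Ccna2, cyclin A2 of S phase and mitosis, read 5.74, 5.76 and 6.03 on abatacept, 8.35, 8.83 and 8.52 on IgG, and 9.59, 9.40 and 9.76 on unimmunised arrays. No group overlapped another, and the fall was 3.74 against unimmunised (SE 0.14, 13.4-fold, adjusted p = 1.8e-10) and 2.72 against IgG (adjusted p = 6.9e-08). Cdk1, the kinase that starts mitosis, read 4.96, 4.79 and 4.71 on abatacept, 7.21, 7.53 and 6.95 on IgG, and 8.46, 8.15 and 8.46 on unimmunised arrays, a fall of 3.54. Ccnb2, its cyclin B2 partner, read 5.53, 4.89 and 4.83 on abatacept, 7.85, 8.15 and 7.83 on IgG, and 8.70, 8.62 and 9.0 on unimmunised arrays, a fall of 3.69. Rrm2, the small subunit of ribonucleotide reductase, fell by 3.52, Cdc6, which loads the replicative helicase, by 3.73, and Mcm5, a part of that helicase, by 2.08. Against unimmunised cells the erythroid and neutrophil lists fell together with these genes, and their part in those falls was not tested. The erythroid list mean was 4.35 to 4.56 with abatacept and 4.22 to 4.27 with IgG, and its part in the 22 and 27 falls against IgG was not tested either.

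The CHR element is the stretch of a cell cycle promoter through which the DREAM complex keeps mitotic genes off in resting cells, and it is shown for Cdk1 and Ccnb2 because their list moved together. Its letters, TTTGAA, were sought on both strands in the 250 bases before and 50 after each RefSeq gene start (GRCm38.p6). They were present for 19 of the 26 mitosis genes with a promoter in the table, against 20.2% of all 27025 genes with one and 14.5% of those tested. A match is a description of letters, not of binding. Both promoters are printed 5′ to 3′ on the gene's strand, from 250 bases before to 20 after the start, with CHR letters in capitals. Cdk1 is chr10:69352893-69353162, minus strand, and Ccnb2 is chr9:70421535-70421804, minus strand.
Cdk1: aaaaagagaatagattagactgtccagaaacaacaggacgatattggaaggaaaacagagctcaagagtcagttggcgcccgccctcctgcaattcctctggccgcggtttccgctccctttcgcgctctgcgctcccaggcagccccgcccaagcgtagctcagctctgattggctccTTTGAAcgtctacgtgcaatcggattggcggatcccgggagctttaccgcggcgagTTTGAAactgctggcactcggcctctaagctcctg
Ccnb2: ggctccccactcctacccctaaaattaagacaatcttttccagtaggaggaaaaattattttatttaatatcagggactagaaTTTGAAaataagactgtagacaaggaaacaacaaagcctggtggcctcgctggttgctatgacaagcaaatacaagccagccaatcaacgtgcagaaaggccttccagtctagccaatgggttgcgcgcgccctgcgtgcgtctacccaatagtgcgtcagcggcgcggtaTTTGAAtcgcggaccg

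**Figure D4:**
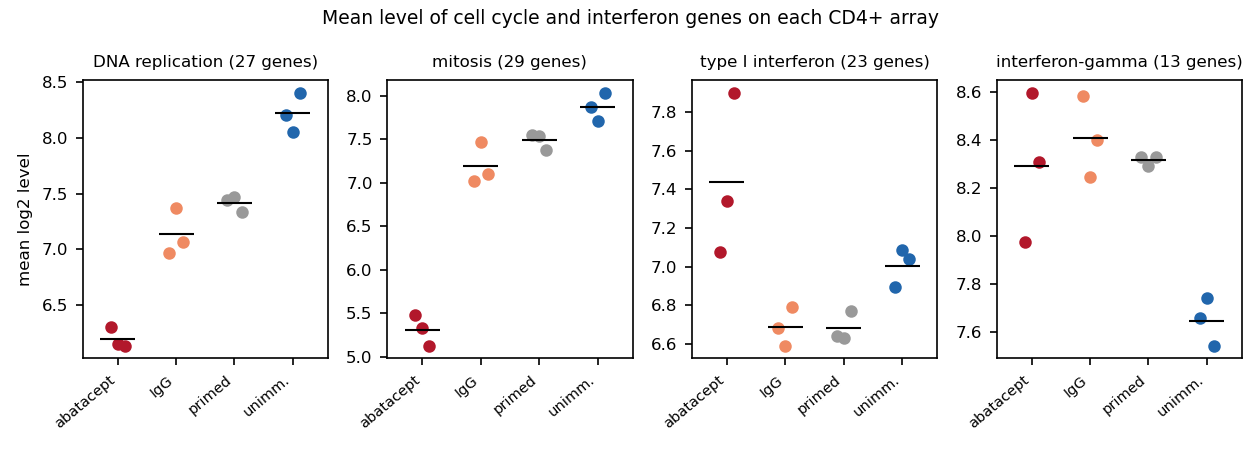
Mean log2 level of the DNA replication, mitosis, type I interferon and interferon-gamma lists on each CD4 array, by group (abatacept, control IgG, primed, unimmunised), with 1 point per array and a bar for the group mean. Both cell cycle lists are lowest with abatacept (mitosis 5.12 to 5.48), and the type I interferon list is highest there and most spread (7.08 to 7.9).

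Genes induced by type I interferon were mostly higher with abatacept. Of 21 tested, 13 rose, 1 fell and 7 were not called, with a median of 0.62, and against IgG 11 were higher and 0 lower, with a median of 0.69. The list mean was 7.08 to 7.9 on abatacept, 6.59 to 6.79 on IgG and 6.89 to 7.08 on unimmunised arrays. Ifit1, which binds foreign capped RNA, read 8.98, 9.15 and 10.33 on abatacept, 7.49, 7.58 and 7.73 on IgG, and 7.46, 8.01 and 7.82 on unimmunised arrays. The abatacept arrays were above all others, by 1.72 over unimmunised (SE 0.27, adjusted p = 0.00012) and 1.89 over IgG (adjusted p = 0.0004). Ifit3, its partner, was picked after its values were seen; it read 7.96, 8.81 and 9.74 on abatacept, 7.05, 6.57 and 6.95 on IgG, and 7.50, 7.95 and 7.75 on unimmunised arrays. It rose by 1.10 (adjusted p = 0.0094).

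Replicate 3 of the abatacept group was the highest for Ifit1, Ifit2, Ifit3 and Xaf1. Without it 11 genes of the list rose in place of 13, Ifit1 stood at 1.30 (adjusted p = 3.3e-05) and Ifit3 at 0.65 (adjusted p = 0.032). Irf7, which amplifies interferon production, rose by 0.63 and was 1.03 above IgG. Zbp1, a sensor of nucleic acids, rose by 1.46, and Xaf1, a promoter of cell death, by 1.15. None was called beyond the 10 T cell genes (Ifit1, 0.41, adjusted p = 0.15, and Zbp1, 0.16, adjusted p = 0.38), and Ifit1 and Zbp1 were called beyond the 8 (0.78 and 0.53). Rsad2, the antiviral enzyme viperin, showed how far the arrays differed: it read 7.36, 6.89 and 9.16 on abatacept and 8.36, 8.56 and 8.65 on unimmunised arrays. That difference was -0.72 (adjusted p = 0.21), and -1.39 without abatacept replicate 3 (adjusted p = 0.0041).

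The interferon-stimulated response element is the site bound by the ISGF3 complex downstream of type I interferon, and it is shown for the pair of Ifit genes above. Its core, the letters GAAA, any 2 bases and GAAA again, was sought in the same windows on both strands and was present for 11 of the 20 listed genes with a promoter in the table, against 3.99% of all genes with one and 3.75% of those tested. Core letters are in capitals, here read on the opposite strand, and the span is again 250 bases before to 20 after the start (GRCm38.p6, RefSeq). Ifit1 is chr19:34640639-34640908, plus strand, and Ifit3 is chr19:34583279-34583548, plus strand. The core and the CHR letters were searched separately, without regard to overlap.
Ifit1: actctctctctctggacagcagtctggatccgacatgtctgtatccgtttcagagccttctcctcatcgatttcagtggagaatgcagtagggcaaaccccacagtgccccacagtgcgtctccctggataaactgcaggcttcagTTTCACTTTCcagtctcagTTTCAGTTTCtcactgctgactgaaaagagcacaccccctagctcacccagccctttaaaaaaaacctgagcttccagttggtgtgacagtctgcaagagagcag
Ifit3: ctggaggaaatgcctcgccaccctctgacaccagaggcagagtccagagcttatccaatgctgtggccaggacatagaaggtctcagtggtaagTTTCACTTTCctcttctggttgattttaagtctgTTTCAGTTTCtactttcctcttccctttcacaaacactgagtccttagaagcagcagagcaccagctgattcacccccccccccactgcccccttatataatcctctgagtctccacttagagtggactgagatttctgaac

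Genes more typical of interferon-gamma were also above the unimmunised level. Of 12 tested, 9 rose, 0 fell and 3 were not called, with a median of 0.69, and against IgG 0 were higher and 2 lower. Nlrc5, the activator of class I antigen presentation genes, read 10.23, 10.36 and 10.13 on abatacept and 8.84, 8.86 and 8.46 on unimmunised arrays, a rise of 1.52 (adjusted p = 5.8e-08), and was -0.11 against IgG (adjusted p = 0.51). Irf1 rose by 0.87, and Psmb9 and Psmb8, subunits of the immunoproteasome, by 0.74 and 0.60. Beyond the 10 T cell genes 0 of the 12 were called, and beyond the 8 only Nlrc5 (0.58). Relative to the 10, Irf1, Psmb9 and Psmb8 were lower, at -0.44, -0.57 and -0.71 (adjusted p = 0.0064, 6.5e-06 and 3.6e-07).

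Genes of Th1 and cytotoxic cells were mostly lower. Of 17 tested, 3 rose, 10 fell and 4 were not called, with a median of -0.68. Tbx21, the Th1 factor T-bet, read 4.86, 5.19 and 5.41 on abatacept and 7.29, 7.46 and 7.53 on unimmunised arrays. The groups were well apart, and the fall was 2.27 (SE 0.16, adjusted p = 4.9e-08), with a level 0.53 below IgG (adjusted p = 0.033). Ifng fell by 1.72 and Nkg7, a cytotoxic granule protein, by 2.64. Ccl5, a chemokine of effector T and NK cells, read 8.81, 8.33 and 8.79 on abatacept, 5.88, 6.54 and 6.62 on IgG, 8.12, 8.16 and 7.77 on primed, and 10.52, 10.54 and 10.65 on unimmunised arrays. Abatacept arrays lay between, 1.93 below unimmunised and 2.30 above IgG. Gzma, granzyme A, showed the same order, 2.51 below unimmunised and 1.53 above IgG, whereas Gzmb, granzyme B, was below both, by 2.55 and 2.08. The NK cell list moved in the same order as Gzma, which belongs to it (5.04 to 5.23 on abatacept, 4.43 to 4.54 on IgG and 6.98 to 7.1 on unimmunised arrays), and its part in these values was not tested. The rises included Stat4, which carries the interleukin-12 signal, at 0.73, and Tnf, at 1.0. No member of the list was called beyond the 10 T cell genes or the 8.

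Few genes of the Th2 and Th17 lineages were measurable. Of 6 tested, 1 rose, 2 fell and 3 were not called, with a median of -0.18, and 4 were lower than with IgG. Gata3, the Th2 factor, was at 0.15 over unimmunised (adjusted p = 0.32), at 0.31 without abatacept replicate 3 (adjusted p = 0.033), and 1.03 below IgG. Il1r1, an interleukin-1 receptor chain, fell by 1.23 and was 2.51 below IgG. It averaged 6.63 in unimmunised CD11c+ cells, and the part of the macrophage list in its fall was not tested.

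Receptors and kinases of the common gamma chain and interleukin-6 cytokines rose in 8 of 13 tested with 0 falls, at a median of 0.49. Il6st, the shared gp130 chain, rose by 1.59, more than the 10 T cell genes by 0.28 (adjusted p = 0.0074). Jak3, which pairs with the gamma chain, rose by 1.67 and Stat5b by 0.46. Il6st was the only 1 of the 13 called beyond the 10 T cell genes, and 3 were called beyond the 8. Jak3 was called beyond the 8 (0.73, adjusted p = 0.0015) but not the 10 (0.37, adjusted p = 0.058). Stat5b rose less than the 10 (-0.85) and the 8 (-0.48).

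Among other genes, the largest rises included Ntn4, a laminin-related matrix protein, which read 7.18, 6.92 and 6.53 on abatacept and 3.77, 3.6 and 3.61 on unimmunised arrays. It rose by 3.21 (SE 0.27, adjusted p = 3.8e-07) and stood 1.91 above IgG (adjusted p = 0.00039). Synpo, synaptopodin, an actin-binding protein, rose by 2.99 and was 1.72 below IgG. Ephx1, microsomal epoxide hydrolase, rose by 2.85 and was 0.89 above IgG. Gm8369, an uncharacterised gene, rose by 2.89 with no call against IgG (0.11, adjusted p = 0.69). Of genes higher in CD4 than in CD11c cells, rises included Ift80, a component of intraflagellar transport, by 2.76, and Id3, an inhibitor of E proteins, by 1.92. For falls, genes were taken as higher in CD4 than in CD11c cells by the unimmunised arrays only, with an abatacept mean above the array medians. They included granulocyte and red cell genes such as Ltf, lactoferrin, at -6.43, and Car2, carbonic anhydrase 2, at -5.20. With abatacept Ltf and Car2 were lower in CD4 than in CD11c cells, at 4.55 against 8.97 and 6.67 against 10.26.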

How the data were processed

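RNA of magnetically sorted CD4+ cells was amplified, labelled with biotin and read on Affymetrix mouse arrays, per the labels' protocols. The authors deposited log2 values, 1 for each probe set on each array, and RMA is the tool named for them, per the submitters' processing notes. Its version was not given in the sources used here. Values ran from 1.667 to 13.242.

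Of 45118 probe sets, 28898 had 1 gene symbol, 551 several and 15669 none in the platform annotation, and only the first were used. The Entrez IDs of 28689 matched RefSeq's gene table, and 0 symbols changed. Groups were taken from the labels. The log2 values of all 15 CD4 arrays in 5 groups were fitted with limma 3.58.1 under R 4.3.3 (functions lmFit and eBayes, 10 residual degrees of freedom), and the p-values are two-sided with Benjamini-Hochberg adjustment over the 10322 genes tested. The fit was tested on simulated data. Nothing in the labels makes the replicates separate animals, so the spread behind each p-value is that of these samples and may be technical. Precision is limited by the number of arrays.

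Members and lists were chosen with earlier results of these data known. The genes named were the 12 largest rises and 6 largest falls whose groups did not overlap. Added to them were the 10 largest of each among genes at least 1 log2 unit higher in unimmunised CD4 than unimmunised CD11c cells. Those also had an abatacept mean above the array medians, and for rises the same gap was required in abatacept-treated cells. Up to 5 called members of each list by adjusted p and a set of receptors, cytokines and factors were named too. Others, such as Cd200, Ikzf2, Fos, Jun, Batf and Gata3, were picked from the lists after their values were seen. Lists are described by counts and medians, with no set test. Alternatives changed the arrays fitted, the filter, the normalization, array weights, the replicate block and the probe set rule, and left out each array in turn; centring without Cd5 and Cd6 was added after seeing the data. Figures were drawn with matplotlib 3.10.9.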

Additional observations from a re-analysis of the deposited data

How the results depend on the processing

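The count of genes called depended most on scaling. Against the main 5978 genes, centring each array on its 10 T cell genes called 10007, with 64 higher and 9943 lower, since it moves every gene by -1.31. Without Cd5 and Cd6 among them, a setting chosen after seeing the data, the shift was -0.94 and 9547 were called, 170 higher and 9377 lower. Quantile normalization again over the CD4 arrays moved the median gene by 0.22 and called 4356 higher and 2575 lower. Leaving out each array in turn called 5282 to 5750 genes, with 2039 to 2300 higher and 3206 to 3596 lower, and 5639 were called on the 6 arrays alone, 6882 with no filter, 5546 with the filter on lymph node arrays (2415 higher, 3131 lower) and 5744 with the mean of a gene's probe sets. The replicate numbers did not pair the samples: deviations of same-numbered arrays correlated at 0.053, 0.0163 and 0.0236, and with the replicate block 5929 genes were called (2391 higher, 3538 lower), 5815 of them in common. Under the scaling alternatives taken less their shift, no list's count of calls moved by over 1.5 times. That statement does not cover the filter on lymph node arrays, which can drop genes high on the unimmunised arrays alone. With abatacept 0 of 7 red pulp macrophage genes had a mean above the array medians, so such counts of falls depend on the filter. With the shift left in, centring on the 10 T cell genes left 8 of 18 rises among costimulatory genes, 4 of 11 among follicular helper genes, 0 of 16 in receptor signalling and 0 of 13 among type I interferon genes. The median of the Th2 and Th17 list turned to 0.06 with no filter. Of the single genes, Klf2 stood at -0.08 with quantile normalization less its shift, at -0.02 without abatacept replicate 2 and at -0.00 without unimmunised replicate 3. For single genes too the scaling alternatives were taken less their shift, so a shift common to all genes could not remove a call. With the shift left in, centring on the 10 T cell genes left Rasgrp1 (0.05, adjusted p = 0.55) and Lef1 (0.03, adjusted p = 0.75) without a call. It put Cblb at -0.37 and Klf2 at -1.29 (adjusted p = 3.6e-08), while Ctla4 stayed called at 4.59. With the shift taken out, of 187 genes named by the rules and tested, 183 were called. Of those 183, 7 lost the call under at least 1 of 14 alternatives (Ccr4, Cd79a, Cxcr3, Cyp51, Lag3, Pdcd1 and Slc1a5). Of these, 4 lost it without 1 array: Ccr4 (0.41 to 0.66), Cxcr3 (-0.65 to -0.32), Lag3 (0.44 to 0.75) and Pdcd1 (0.43 to 0.61). With the mean of all probe sets Cyp51 was at -0.31 (adjusted p = 0.11) and Slc1a5 at 0.13 (adjusted p = 0.36). The causes were not tested. Genes whose means are under the array medians in both groups, such as Il2 and Nt5e, are limited by signal over background.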

Other observations

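In each of the metabolic lists below, falls against unimmunised cells outnumbered rises. Over all genes tested 34.5% fell, with a median of -0.05. Of 13 tested genes of cholesterol synthesis and uptake, 2 rose, 8 fell and 3 were not called, with a median of -0.41, and 8 were also lower than with IgG. Sqle, squalene epoxidase, read 5.40, 4.73 and 5.16 on abatacept and 7.15, 7.16 and 7.17 on unimmunised arrays, a fall of 2.07 (adjusted p = 4.6e-06). Idi1, an isomerase of the same pathway, fell by 1.42 and was 0.96 below IgG. Of 15 genes of glycolysis, 4 rose, 8 fell and 3 were not called, with a median of -0.35. Against IgG 1 of them was higher and 8 were lower. Tpi1, triose phosphate isomerase, fell by 2.09 and Hk2, hexokinase 2, by 1.60, while Pkm, pyruvate kinase, rose by 0.48 and Slc2a1, a glucose transporter, by 0.44. Of 14 genes of MYC targets and amino acid supply, 2 rose, 8 fell and 4 were not called, with a median of -0.22. Against IgG, by contrast, 2 of these were higher and 1 lower, with a median of 0.01. Odc1, ornithine decarboxylase, fell by 1.83, with no call against IgG (-0.36, adjusted p = 0.091). The erythroid list fell beside all of these, and its part in them was not tested.

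Survival and death genes were divided, with 7 rises, 5 falls and 4 genes not called of 16, and a median of 0.21. Pim2, a survival kinase, read 7.19, 7.29 and 7.01 on abatacept and 5.37, 5.13 and 5.12 on unimmunised arrays, a rise of 1.95 (adjusted p = 1.4e-08) that exceeded the 10 T cell genes by 0.65 (adjusted p = 0.00023). Birc3, an inhibitor of apoptosis, rose by 0.82, and Bid, a trigger of mitochondrial death, fell by 1.37. Pim2 was the only 1 of the 16 called beyond the 10 T cell genes, and also the only 1 beyond the 8.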
